A study of Homo sapiens with 6 samples.

Results

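The mitochondrial ribosomal protein genes carry MRPL or MRPS symbols and encode the proteins of the ribosome inside mitochondria. They were chosen by symbol alone, as every row named MRPL or MRPS followed by a number and at most 1 letter from A to D. This gave 77 of the 57232 rows of the expression table, 47 with an MRPL and 30 with an MRPS symbol. MRPS17 has 2 rows, so the 77 rows hold 76 symbols. The RNA came from IMR90 cells, a line of human fetal lung fibroblasts, infected at day 0 with an empty vector (3 libraries) or with ARID1B cDNA (3 libraries). ARID1B is a subunit of the SWI/SNF chromatin remodeling complex, and the comparison asks how transcript levels differ when fibroblasts express it ectopically. Both groups were selected with puromycin until day 4, were at passage 13 and were collected 6 days after infection. The ARID1B cells carry extra ARID1B cDNA beside their own gene, all cells are of 1 line, and the promoter that drives the cDNA is not given in the sources used here.

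The mitochondrial ribosome translates the few proteins that mitochondrial DNA encodes, all of them subunits of the respiratory chain and the ATP synthase. It has a large subunit, which forms peptide bonds, and a small subunit, which decodes the mRNA. Its RNAs come from mitochondrial DNA, but its proteins are encoded in the nucleus, made in the cytosol and imported. Many of them have a bacterial counterpart, and others are specific to mitochondria. Symbols follow history rather than place: MRPS18A and MRPS30 sit in the large subunit, and MRPS36 is now known as a component of the ketoglutarate dehydrogenase complex, so it was counted in neither subunit. With these assignments 49 of the rows belong to the large subunit and 27 to the small subunit.

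Promoters of 67 of the 76 symbols were found in a RefSeq table of the GRCh38.p14 build. MRPL10, MRPL13, MRPL15, MRPL2, MRPL21, MRPL23, MRPL35, MRPS28 and MRPS36 are not among them. The 250 bases before the annotated start are shown for 3 members: MRPL45, the member with the smallest p in the comparison below, and MRPL12 and MRPL33, those with the most negative and the most positive log2 change. Capitals mark an NRF1 core (TGCGCA), an E-box (CACGTG) or an ETS site (CCGGAAG), searched as these letters on both strands.
MRPL45, chr17:38296918-38297167, plus strand: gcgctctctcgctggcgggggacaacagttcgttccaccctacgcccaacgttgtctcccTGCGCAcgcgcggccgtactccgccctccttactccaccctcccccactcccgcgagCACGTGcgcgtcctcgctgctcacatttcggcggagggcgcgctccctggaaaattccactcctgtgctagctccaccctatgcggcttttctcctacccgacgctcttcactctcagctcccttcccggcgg
MRPL12, chr17:81703117-81703366, plus strand: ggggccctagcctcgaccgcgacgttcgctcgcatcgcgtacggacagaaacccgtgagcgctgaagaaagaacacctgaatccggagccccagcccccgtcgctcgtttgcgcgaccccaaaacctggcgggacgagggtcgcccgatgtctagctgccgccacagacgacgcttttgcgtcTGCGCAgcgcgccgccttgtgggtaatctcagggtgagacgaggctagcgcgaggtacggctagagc
MRPL33, chr2:27771469-27771718, plus strand: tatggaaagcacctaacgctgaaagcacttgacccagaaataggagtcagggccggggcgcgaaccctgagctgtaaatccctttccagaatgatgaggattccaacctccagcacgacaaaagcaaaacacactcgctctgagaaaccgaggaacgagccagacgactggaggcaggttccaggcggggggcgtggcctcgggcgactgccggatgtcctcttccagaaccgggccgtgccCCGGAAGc

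Several promoter features that the choice by symbol did not use had a different share among the members than among all promoters. The 27305 promoters of all genes were not filtered by gene type or expression. NRF1 and the ETS factor GABPA are known activators of nuclear genes for mitochondria. The NRF1 core was in 12 of the 67 promoters (17.9%) and in 7.05% of 27305 promoters of all genes. The ETS letters were in 22 (32.8%) against 8.82%, and at least 1 of these motifs was in 32 (47.8%) against 14.8%. The letters ATGGCGG, a YY1 site, were in 5 (7.46%) against 2.83%, and the E-box was in 6 (8.96%) against 6.49%. The TATA box letters TATAAA were in 2 of the promoters (2.99%) against 11.1% of all. The motifs can share bases in a promoter, and a match of letters is not a bound site. The median promoter of a member held 19 CpG dinucleotides, against 11 in all promoters. In the GENCODE annotation, release 29 on GRCh38, starts of protein-coding genes on opposite strands were compared. Another such gene started within 1000 bases for 28 of the 76 members (36.8%), against 2586 of 19951 protein-coding genes (13%). Direction was not checked, so the genes of a pair may overlap or point away from each other. MRPL46 and MRPS11 are such a pair with each other, MRPL43 stands beside TWNK, the mitochondrial DNA helicase, and MRPS12 beside SARS2, the mitochondrial seryl-tRNA synthetase. These shares are descriptions, since members of a family that were chosen together give no test.

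The authors deposited FPKM, which divides the fragments of a gene by its length and by the size of the library. Their low values step in whole reads, which gave library totals from 63386813 to 91924514. ARID1B itself was at 1.88 ± 0.509 FPKM with the vector and at 27.3 ± 5.79 with ARID1B (SD, n = 3 each), with a log2 change of 3.29 (SE 0.208, limma adjusted p = 0.0255). With any 1 library other than vector replicate 2 left out, the limma adjusted p was between 0.0601 and 0.323, with log2 changes of 3.16 to 3.46. All 10 fibroblast markers were above 1 FPKM on average, and none of the 7 epithelial and 6 blood markers was. Of 4 endothelial markers 1, TEK, was, and of 4 smooth muscle markers 2 were, CNN1 and SMTN. Vector replicate 2 stood apart from the rest: the first principal component (63.8% of the variance) placed it at 48.5 and every other library between -20.0 and 3.63. In addition, mixtures of replicates 1 and 2 were set beside replicate 3 of each group. The nearest mixture held 81.9% of vector replicate 1 in one group and 69.3% of ARID1B replicate 1 in the other. How near these mixtures came was not measured. If replicate 3 is such a mixture, its group holds fewer independent samples than libraries. The study describes the replicates of this experiment as biological, and the labels give only their numbers.

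Vector replicate 2 was an extreme library across the table, and most mitochondrial ribosomal protein genes were high in it. Over all 10416 genes that average 1 FPKM or more it was the highest library for 39.5% and the lowest for 37.5%. For the 71 members that averaged 1 FPKM or more, summed FPKM was 675, 1141 and 747 in vector replicates 1, 2 and 3 and 783, 664 and 735 in ARID1B replicates 1, 2 and 3. Vector replicate 2 was thus above all other libraries, while the other 5 libraries of both groups overlapped. It was the highest library for 64 of the 71 members (90.1%) and the lowest for 1. Its ratio to the mean of vector replicates 1 and 3 had a median of 1.55 over the members, from 0.874 to 2.5, and of 1.01 over all these genes. ARID1B replicate 2 was the lowest library for 36 of the 71 members, a larger share than the 27.6% of all genes for which it was lowest. Replicate 3 lay between replicates 1 and 2 for 65 members with the vector, 91.5% against 85.0% of all genes, and for 53 with ARID1B, 74.6% against 69.2%. The sum of 4 smooth muscle markers was also highest in vector replicate 2, at 28.9 FPKM against 12 and 14.7 in the other vector libraries and 15.3 to 19.3 with ARID1B, while the endothelial sum was lowest there, at 0.883 FPKM against 3.66 and 3.17, and 1.82 to 3.63 with ARID1B. The fibroblast sum was 2304 FPKM there, against 3155 and 3038 in the other vector libraries and 2184 to 3206 with ARID1B. The smooth muscle and endothelial sums rest on few genes, since only CNN1, SMTN and TEK of these lists averaged 1 FPKM or more. The part of these cell type markers in the result was not tested. Log2 changes below are therefore given with and without vector replicate 2.

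**Figure D1:**
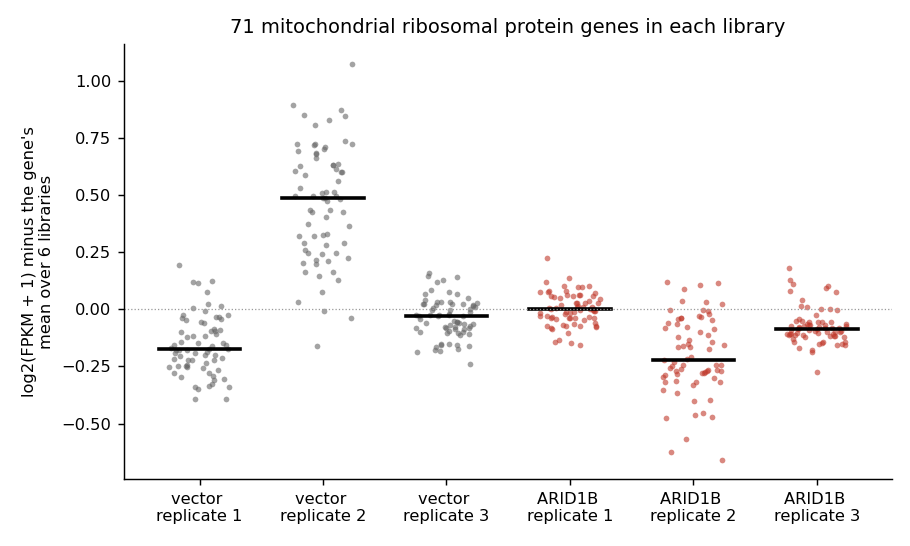
Each point is 1 of the 71 members in 1 library, as log2(FPKM + 1) minus the mean of that gene over the 6 libraries, and the black line is the median of the library. The median is 0.49 in vector replicate 2 and lies between -0.22 and 0.00 in the other 5 libraries, where vector (grey) and ARID1B (red) overlap.

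Levels of the members differed widely within the family. The tested members ran from 1.52 to 35.5 FPKM on average, a 23.4-fold range, with a median of 7.97 FPKM, against 4.67 for all genes tested and 89.5 for the proteins of the cytosolic ribosome. MRPL14, a protein of the face between the subunits, led at 35.5 FPKM, followed by MRPS21 at 33.2 and MRPS10 at 32.5. MRPL14 was at 26.0, 56.2 and 32.4 FPKM with the vector and at 36.3, 29.4 and 32.7 with ARID1B. MRPS21 was at 28.7, 49.3 and 33.1 FPKM with the vector and at 32.2, 26.9 and 29.1 with ARID1B. MRPS10 held between 31.4 and 34.7 FPKM in all libraries. These 3 genes overlap one another across libraries, so their order is not separated from the spread.

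Not tested were 6 rows with a mean under 1 FPKM, MRPL30, MRPL38, MRPL46, MRPL53, MRPS24 and the second MRPS17 row. MRPL30 is listed at 0 in 5 libraries and at 1 read in vector replicate 1. MRPL38 was at 0.0571 to 0.136 FPKM, MRPS24 at 0.115 to 0.207, MRPL46 at 0.245 to 0.631 and MRPL53 at 0.527 to 0.949. All encode structural proteins of the ribosome. In the GENCODE annotation these rows share exonic bases with another gene on the same strand, 19.5% for MRPL30, 37.5% for MRPL38, 11.3% for MRPL46, 45.2% for MRPL53, 23.2% for MRPS24 (with the readthrough gene URGCP-MRPS24) and 88.6% for the second MRPS17 row. Among the tested members, MRPL12 shares 68.2%, MRPS28 35.8%, the first MRPS17 row 27% and MRPL33 21.1%. Reads of these genes may be split or dropped in counting, and their levels are uncertain. With genes on the opposite strand, MRPS18A shares 47.0%, MRPS18C 40.2% and MRPL43 36.9%, the largest such shares among the tested members. Whether counting used strand is not given, so the same may hold for them. Of 66 pseudogene rows of the family, 54 were listed at 0 in all libraries and none reached a mean of 1 FPKM.

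Between ARID1B and vector, no member passed the test. With limma on log2(FPKM + 1) and Benjamini-Hochberg adjustment over the 10416 genes, 0 members were called higher, beside 3 of all genes (0.0288%), and 0 lower, beside 0 of all genes (0%). Without adjustment, a limma p under 0.05 was reached by 0 members on the higher side, against 4.64% of all genes, and by 3 members on the lower side (4.23%, namely MRPL45, MRPL10 and MRPL23), against 5.94%. The 3 ARID1B libraries lay below the 3 vector libraries for 7 members (9.86%), against 11.1% of all genes, and above them for 0, against 9.44%. By none of these counts did the members exceed the share of all genes. For a single gene, 3 against 3 libraries cannot give a p under 0.1 in an exact two-sided permutation test.

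The estimates of the members nevertheless leaned to 1 side while vector replicate 2 was included. Of the 71 members, 64 (90.1%) had a negative log2 change, against 52.4% of all genes, and the median was -0.21 with a range from -0.58 to 0.21, against a median of -0.02 for all genes. Without vector replicate 2, 35 of 71 were negative (49.3%, against 52.2% of all genes) and the median was 0.02. The lean of the family was thus not seen without this 1 library. In bulk RNA, fewer cells with a transcript and less of it per cell cannot be told apart.

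**Figure D2:**
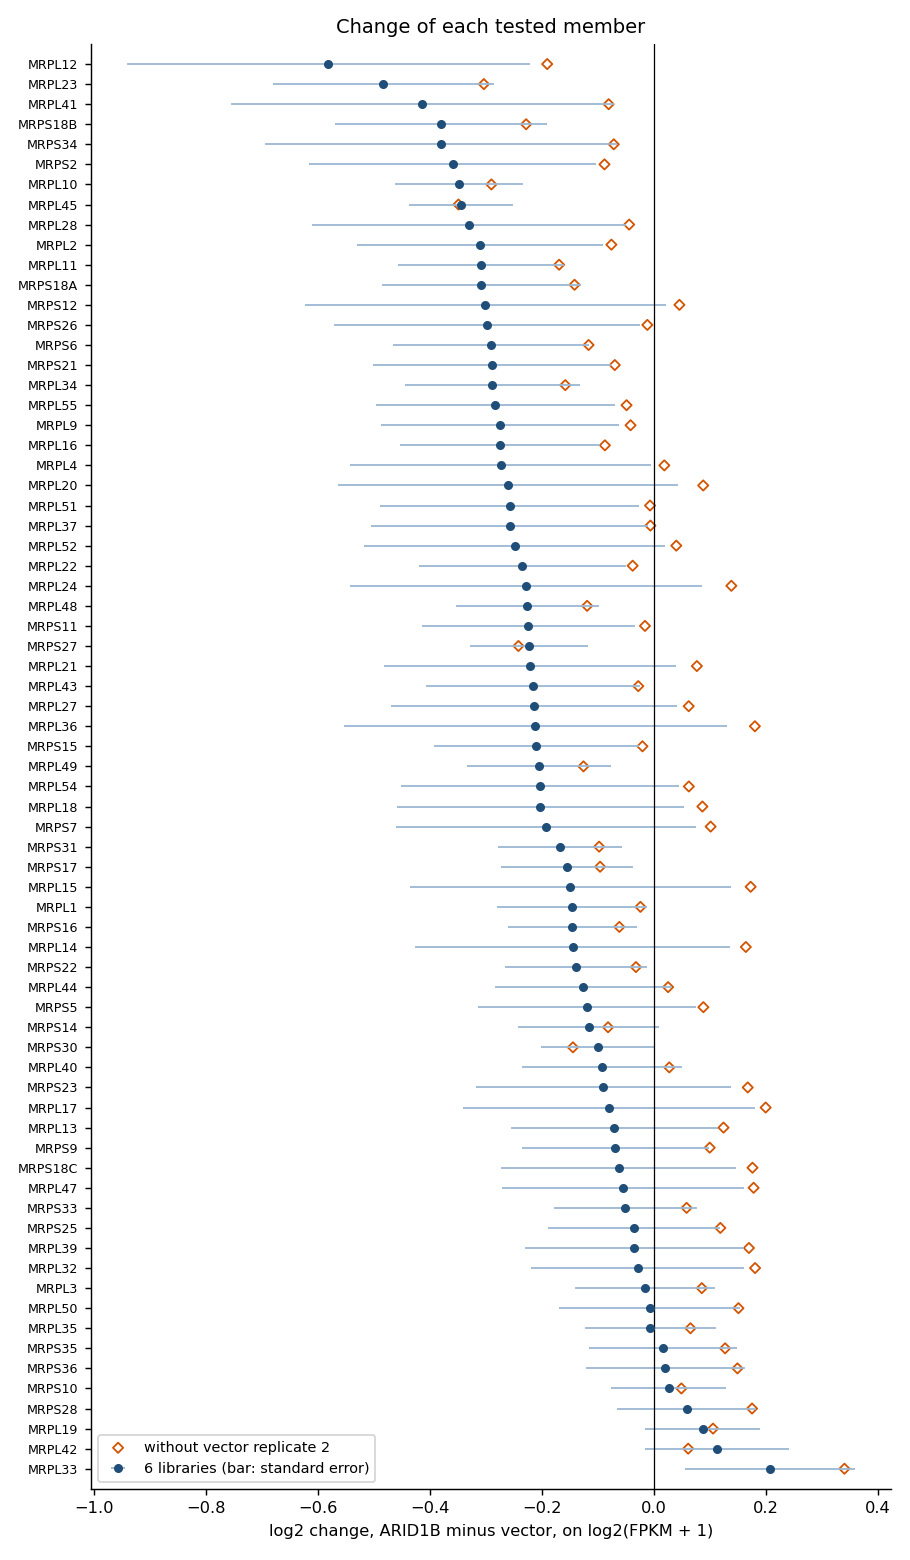
Each row is 1 of the 71 tested members, ordered by its log2 change between ARID1B and vector on log2(FPKM + 1). Filled circles with bars are the estimate and its standard error over 6 libraries, and open diamonds are the estimate without vector replicate 2, which lies on either side of 0 for about as many members (35 negative, 36 positive), whereas 64 of the filled circles are negative.

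Without vector replicate 2 the number of genes called was larger, but still held no member. Limma then called 125 genes higher (1.20%) and 199 lower (1.91%). By unadjusted p under 0.05, 4 members were higher (5.63%, against 10.0% of all genes), namely MRPL33, MRPL32, MRPS18C and MRPS28, and 3 were lower (4.23%, against 13.7%), namely MRPL45, MRPL10 and MRPS27. The ARID1B libraries lay above vector replicates 1 and 3 for 13 members (18.3%, against 18.8%) and below them for 8 (11.3%, against 23.9%). The 13 were MRPS23, MRPL13, MRPS18C, MRPL47, MRPS25, MRPL39, MRPL32, MRPL3, MRPL50, MRPS35, MRPS36, MRPS28 and MRPL33, and they were named after their values were seen. The 8 were MRPS30 and the 7 members below the vector in all libraries, MRPL23, MRPL10, MRPL45, MRPL11, MRPS27, MRPL49 and MRPS16, also named after their values were seen.

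At the exit of the peptide tunnel, MRPL45 gave the smallest p of the family. MRPL45 is a mitochondria-specific protein that anchors the large subunit to the inner membrane. It was at 14.6, 14.2 and 14.2 FPKM with the vector and at 11.2, 11.1 and 11 with ARID1B. The groups were apart, each within a narrow range, and vector replicate 2 did not stand out. The SD within a group was 1.38% of the mean for the vector and 1.15% for ARID1B, below the counting error of its recovered reads (1.68% and 1.90%). The log2 change was -0.34 (SE 0.0926, limma adjusted p = 0.320), and without vector replicate 2 it was -0.35 (adjusted p = 0.0623). Its pseudogene MRPL45P2, a near copy, was the highest of the family's pseudogenes, at 0.982, 0.908 and 0.991 FPKM with the vector and 0.645, 0.662 and 0.656 with ARID1B. Its groups were apart in the same direction, and whether reads were exchanged between the copies in counting was not tested.

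Among the other proteins around the tunnel exit, MRPL23 also had groups apart, with and without vector replicate 2. MRPL23, which lines the exit, was at 7.60, 12.2 and 8.68 FPKM with the vector and at 7.30, 5.30 and 6.72 with ARID1B. Vector replicate 1 and ARID1B replicate 1 nearly touched. The log2 change was -0.48 (SE 0.197, limma adjusted p = 0.468), and -0.30 without vector replicate 2. MRPL22 (-0.24) and MRPL24 (-0.23), also of the exit ring, had overlapping groups, and without vector replicate 2 their log2 changes were -0.04 and 0.14. The 6 members assigned to the tunnel here, which include MRPL39 and MRPL44, had a median log2 change of -0.23 and 6 of 6 negative values. Without vector replicate 2 they had a median of -0.01 and 3 of 6. MRPL17 and MRPL47, also placed near the exit, were not in this set. They were at -0.08 and -0.06, and at 0.20 and 0.18 without vector replicate 2.

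The stalk of the large subunit recruits the translation factors. MRPL10, its base, was at 6.56, 7.53 and 6.57 FPKM with the vector and at 5.65, 4.67 and 5.27 with ARID1B. All ARID1B libraries lay below all vector libraries, with a log2 change of -0.35 (SE 0.114, limma adjusted p = 0.390) and -0.29 without vector replicate 2 (adjusted p = 0.137). MRPL11, at the foot of the stalk, was at 5.85, 8.21 and 5.93 FPKM with the vector and at 5.48, 4.76 and 5.16 with ARID1B. Its groups were also apart, with a log2 change of -0.31 (SE 0.148, adjusted p = 0.522) and -0.17 without that library.

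MRPL12, the mobile protein of the stalk, had the most negative log2 change of the family. It was at 4.48, 12.4 and 5.45 FPKM with the vector and at 5.49, 3.14 and 4.26 with ARID1B. Vector replicate 2 held more than any other library and the remaining libraries of the groups overlapped. The log2 change was -0.58 (SE 0.36, limma adjusted p = 0.620) and -0.19 without vector replicate 2. MRPL54, placed near the stalk, was at -0.20 and without this library at 0.06, and MRPL53 was not tested. The 4 tested stalk members had a median of -0.33, which was -0.18 with 3 of 4 negative without vector replicate 2.

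MRPL41, a mitochondria-specific protein of the large subunit, was also highest in vector replicate 2. It was at 18.9, 42.8 and 23.1 FPKM with the vector and at 25, 14.2 and 21.6 with ARID1B, with overlapping groups. Its log2 change of -0.41 (SE 0.342, limma adjusted p = 0.703) became -0.08 without vector replicate 2. At the other end of the family, MRPL33, a small protein of the large subunit, was at 12.7, 17 and 12.6 FPKM with the vector and at 17.7, 14.8 and 16.4 with ARID1B. Its log2 change was 0.21 (SE 0.151, adjusted p = 0.666). Without vector replicate 2 the groups were apart and the log2 change was 0.34 (adjusted p = 0.113). MRPL42 (0.11, and 0.06 without that library) and MRPL19 (0.09, and 0.11), also of the large subunit, had overlapping groups in both cases.

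**Figure D3:**
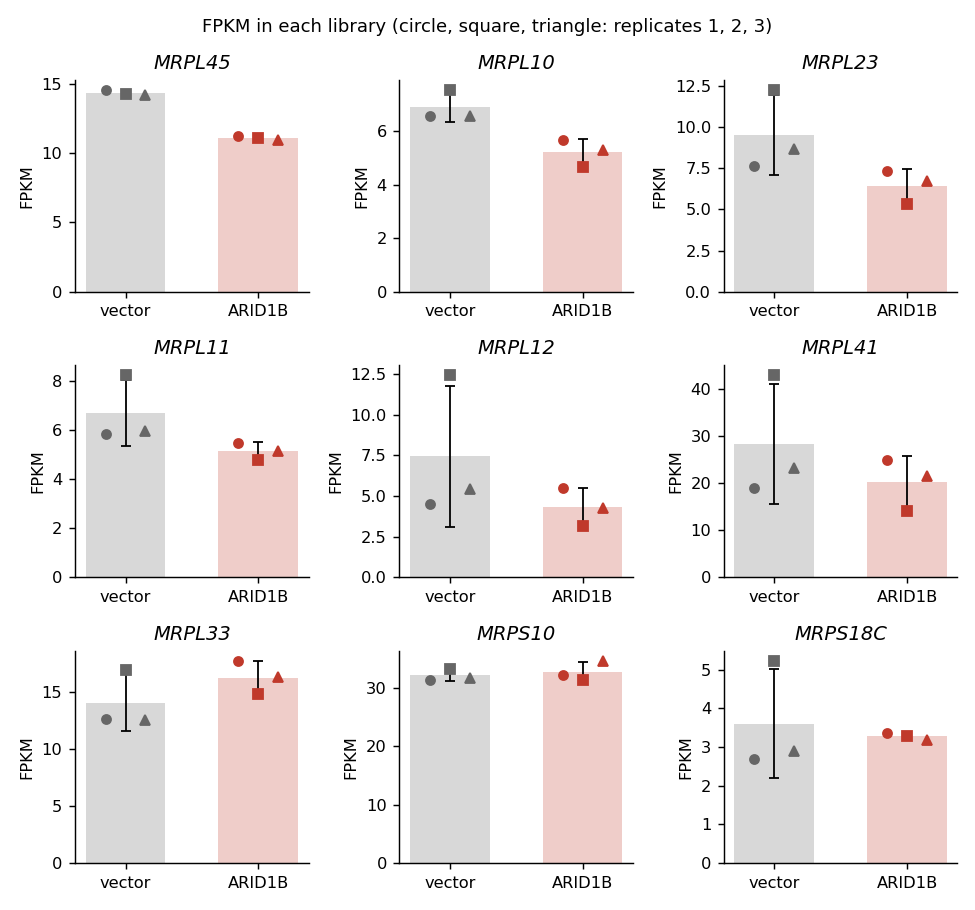
FPKM of 9 members with the vector (grey) and ARID1B (red), where circles, squares and triangles are replicates 1, 2 and 3, bars are means from 0 and lines are SD (n = 3). MRPL45, MRPL10, MRPL23 and MRPL11 have groups that do not overlap, while in MRPL12 and MRPL41 the square of vector replicate 2 (12.4 and 42.8 FPKM) lies far above the other points.

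In the small subunit, the most negative log2 changes were those of MRPS18B, MRPS34 and MRPS2. MRPS18B was at 12.2, 17.8 and 13.1 FPKM with the vector and at 12.3, 8.67 and 11.3 with ARID1B, with groups that overlapped at replicate 1. Its log2 change was -0.38 (limma adjusted p = 0.534), and -0.23 without vector replicate 2. MRPS34 (-0.38) and MRPS2 (-0.36) became -0.07 and -0.09 without that library. MRPS12, of the decoding centre, was at 6.03, 15 and 7.57 FPKM with the vector and at 8.39, 5.49 and 7.44 with ARID1B, and its log2 change of -0.30 became 0.05. With all libraries, MRPS28 (0.06), MRPS10 (0.03) and MRPS36 (0.02) were the most positive of the MRPS symbols. Without vector replicate 2 they were at 0.18, 0.05 and 0.15, and MRPS18C (0.18) and MRPS23 (0.17) then stood above MRPS10 and MRPS36.

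Of the 3 paralogs of bacterial S18, MRPS18C stood apart in level. MRPS18A and MRPS18B were close to each other, with means of 12.5 and 12.6 FPKM and log2 changes of -0.31 and -0.38. MRPS18A, in the large subunit, was at 11.7, 17.6 and 12.6 FPKM with the vector and at 11.8, 9.53 and 11.5 with ARID1B, a log2 change of -0.31 and of -0.14 without vector replicate 2. MRPS18C, in the small subunit, was lower in level at 2.68, 5.23 and 2.90 FPKM with the vector and at 3.37, 3.29 and 3.19 with ARID1B. Its log2 change of -0.06 turned to 0.18 without vector replicate 2, with the groups then apart. None of the 3 passed the test, and the differences between them were not tested. MRPS30, of the large subunit, was at 4.46, 3.89 and 4.26 FPKM with the vector and at 3.54, 4.01 and 4.00 with ARID1B. It was one of the few members where vector replicate 2 was not the highest library, and its log2 change was -0.10, or -0.15 without that library.

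The classes by place or origin had like medians, and differences between them were not tested. The 45 tested members of the large subunit had a median log2 change of -0.22 with 42 negative, and the 25 of the small subunit one of -0.16 with 22 negative. Without vector replicate 2 the medians were 0.03 and -0.02. The 44 members with a bacterial counterpart had a median of -0.21 and the 26 mitochondria-specific members one of -0.20, and without this library 0.05 and -0.01. No member of any class passed the limma test in either fit.

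The excess in vector replicate 2 ran with base composition. GC content of the longest transcript was known for 69 of the 71 members (97.2%, without MRPL45 and MRPS21), with a median of 47.6%, against 47.8% for all genes. The transcripts of the members were shorter, with a median of 1717 bases against 3614. For the 23 members with the lowest GC content (33.5% to 43.3%) the median ratio of vector replicate 2 to vector replicates 1 and 3 was 1.31, for the 23 in the middle 1.52, and for the 23 with the highest (52.7% to 71.9%) 1.89. ARID1B replicate 2 ran the other way. Its median ratio to ARID1B replicates 1 and 3 was 0.993, 0.874 and 0.783 in the same groups, from lowest to highest GC content. The median log2 changes of these groups were -0.05, -0.20 and -0.28, and without vector replicate 2 they were 0.07, 0.03 and -0.03. Across the 69 members, which share libraries and are not independent, the Spearman correlation of log2 change with GC content was -0.74, against -0.55 over all genes, and without vector replicate 2 -0.32, against -0.27. After a correction of every library for GC content and length the median of the members was -0.12 with 60 negative, and with both this correction and vector replicate 2 left out it was 0.03 with 31 negative, an alternative chosen after seeing the data.

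**Figure D4:**
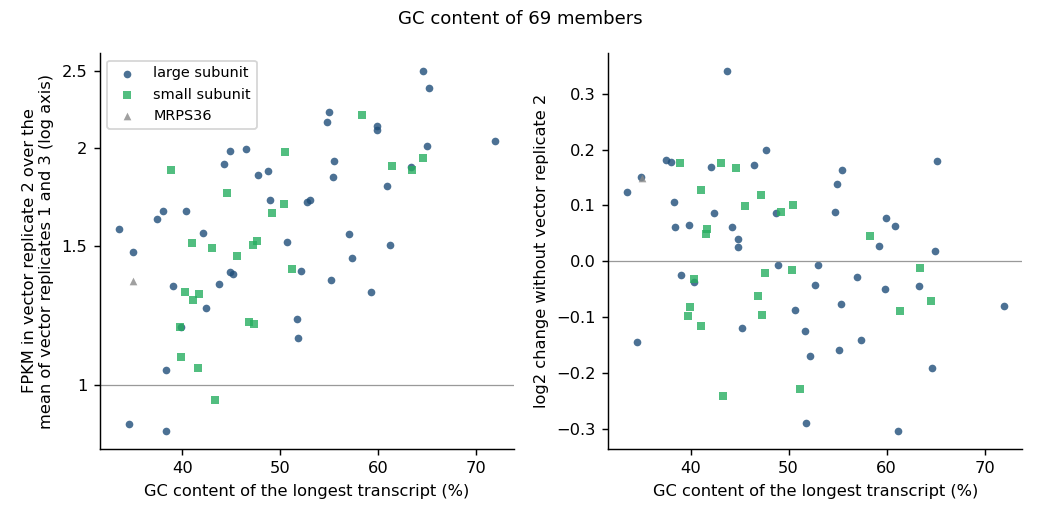
Each point is 1 of 69 members placed by the GC content of its longest transcript (percent), in the left panel against its FPKM in vector replicate 2 over the mean of vector replicates 1 and 3 (log axis) and in the right panel against its log2 change without vector replicate 2. The ratio is larger at higher GC content, from a median of 1.31 in the 23 lowest to 1.89 in the 23 highest, while the medians of the log2 change without this library are 0.07 and -0.03.

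The proteins of the cytosolic ribosome gave a different picture. All 81 tested had a negative log2 change, with a median of -0.32, and 55 (67.9%, against 11.1% of all genes) had ARID1B libraries below all vector libraries, although 0 were called by limma. Without vector replicate 2, 76 of 81 were negative, the median was -0.22 and 55 were again below (against 23.9% of all genes), whereas the mitochondrial family was at 0.02. The difference between the families was not tested. The RNAs that the mitochondrial ribosome is built on or translates had positive log2 changes. The rRNA MT-RNR1 was at 571, 663 and 675 FPKM with the vector and at 727, 1324 and 838 with ARID1B (log2 change 0.55, limma adjusted p = 0.493, and 0.58 without vector replicate 2), and MT-RNR2 at 2419, 2178 and 2453 against 2770, 3806 and 2907 (0.42, adjusted p = 0.469, and 0.36). All 13 mitochondrial mRNAs were positive, with a median of 0.45, or 0.70 without vector replicate 2, and 0 were called. The libraries were made with an mRNA kit, which selects for poly(A) tails, and its part in the levels of mitochondrial RNA was not tested.

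Proteins that work with the mitochondrial ribosome were read from fixed lists. The list of ribosomal proteins with other symbols held 8 genes, among them OXA1L, which is not a ribosomal protein. Of the 8, 0 were called and 7 were negative, with a median of -0.16 and of 0.05 without vector replicate 2. DAP3, the GTP-binding protein of the small subunit, was at 10.5, 16.1 and 11.1 FPKM with the vector and at 11.7, 11.5 and 11.1 with ARID1B (-0.10, and 0.08 without that library). ICT1, a release factor built into the large subunit, was at -0.21 and 0.08. Of 14 genes tested on the list of translation factors, LRPPRC among them, 0 were called and 8 were negative. Their median was -0.03, and -0.02 without vector replicate 2. GFM1, the elongation factor for translocation, was at 3.87, 3.69 and 3.59 FPKM with the vector and at 4.78, 4.50 and 4.87 with ARID1B. All ARID1B libraries lay above all vector libraries, with a log2 change of 0.28 (SE 0.0926, limma adjusted p = 0.390) and of 0.27 without vector replicate 2. TUFM, the factor that brings tRNAs, followed the pattern of the family at 35.2, 62.4 and 39.7 FPKM against 40.8, 32.3 and 37.4 (-0.27, and -0.03).

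Of 24 assembly and rRNA modification genes, 0 were called and 21 were negative (median -0.16, and 0.01 without vector replicate 2). The list of mitochondrial aminoacyl-tRNA synthetases held 20 tested genes, among them QRSL1 and PET112, which are not synthetases. Of the 20, 0 were called and 14 were negative (median -0.09, and -0.03 without vector replicate 2). The 9 genes of mitochondrial DNA transcription and replication had a median of -0.03, and of 0.06 without vector replicate 2, with 0 called. Among them, TFAM, which packages mitochondrial DNA, was at 4.63, 2.95 and 4.16 FPKM with the vector and at 4.31, 4.33 and 4.83 with ARID1B. Its log2 change was 0.17 (limma adjusted p = 0.718), and 0.03 without vector replicate 2. POLRMT, the mitochondrial RNA polymerase, was at 3.06, 6.00 and 3.74 against 3.93, 2.62 and 3.37 (-0.26, limma adjusted p = 0.717, and -0.04 without that library). LRPPRC, which stabilizes mitochondrial mRNAs, was between 11.7 and 14.3 FPKM in all libraries (0.05, and -0.03). The 7 regulators of mitochondrial biogenesis tested had a median of 0.08, and of 0.02 without vector replicate 2, with 0 called and 2 negative. Among these regulators, NRF1, whose motif was searched above, was between 1.18 and 1.46 FPKM (0.08, and 0.10). GABPA was at 7.90, 2.54 and 5.32 against 4.68, 5.22 and 5.98 (0.10, and -0.26 without vector replicate 2). PPARGC1A, a coactivator of mitochondrial biogenesis, was not tested at a mean of 0.0611 FPKM. None of these genes passed the limma test.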

How the data were processed

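RNA-seq of 6 IMR90 libraries was analysed, 3 with vector and 3 with ARID1B, grouped by the sample labels. The authors deposited FPKM values and no counts. Per the labels, the submitters list hg19, DESeq2, HTSeq (0.5.3p9) and TopHat2 (2.0.11), without the role of each. The kit was stranded, and whether counting used strand is not given in the sources used here. Library totals and reads were recovered from the FPKM steps (GENCODE 29, single-transcript genes). All 10416 genes tested gave whole reads in 6 libraries, where shared divisors could make reads too small. The tolerance was 0.002 reads, and for genes with the most reads it was wider and grew with the reads. A tested member held 239 to 12663 reads in a library. The SD within a group exceeded the counting error of these reads for 70 of 71 members with the vector and 67 with ARID1B. Genes that averaged 1 FPKM or more were tested with limma 3.58.1 (R 4.3.3, variance trend, two-sided) on log2(FPKM + 1), which understates changes of low genes, and an adjusted p (Benjamini-Hochberg) under 0.05 was called. The count-based fit (limma's voom on recovered reads) called 1 gene. The steps were tested on simulated data. Python 3.11.15, scipy 1.17.1, pandas 2.3.3 and matplotlib 3.10.9 were used.

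The members and lists were chosen with earlier results of these data known. Members were named if past the threshold (none), if among the 6 most negative or 6 most positive log2 changes or the 3 highest or lowest means, or by role (stalk, exit tunnel, decoding centre, S18 paralogs, MRPS30). Other genes were named by role. The promoter, neighbor, pseudogene and mitochondrial RNA looks were added after seeing the data. Alternatives were each library left out, a replicate block, quantile normalization, median-ratio rescaling, a 0.1 pseudocount, a filter at 5 FPKM or none, a fit with no variance trend, both libraries numbered 3 left out, voom, and splines for GC content and length (5 degrees of freedom each). The files use hg19, so promoter coordinates are those of the RefSeq table, and no gene coordinates are given.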

Additional observations from a re-analysis of the deposited data

How the results depend on the processing

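No member was called under any alternative run. The median log2 change of the members lay between -0.35 (without vector replicate 1) and 0.02 (without vector replicate 2) with 1 library left out, and was negative under every other alternative except GC and length correction without vector replicate 2, at 0.03. Negative members were 35 to 67 with 1 library left out, 35 being without vector replicate 2, and 31 with the GC correction as well. With median-ratio rescaling or quantile normalization 62 were negative. Members with groups apart and lower numbered 7 to 22 with 1 library left out. There were 22 without vector replicate 1 (31.0% against 17.1% of all genes) and 15 without ARID1B replicate 1 (21.1% against 17.4%). Members apart and higher numbered 0 to 13, with 13 without vector replicate 2 (18.3% against 18.8%). With median-ratio rescaling 9 were apart and lower and 1 apart and higher, and the shares of all genes were not counted there. Of all genes, 0 to 125 were called higher and 0 to 199 lower with 1 library left out, the largest without vector replicate 2. With the GC correction and without that library they were 136 and 165, and 0 were higher without both libraries numbered 3, without the filter and with the replicate block, and 1 with voom.

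ARID1B itself kept a log2 change between 3.14 and 3.88 under the alternatives, with limma adjusted p from 0.00382 to 0.838, and lost its call in 8 of them.

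The labels do not say whether the replicate numbers pair the samples. Deviations of same-numbered libraries from the means of their groups correlated at -0.46, -0.43 and -0.17, so they did not rise and fall together. Libraries of different numbers correlated at -0.41 to 0.46, the highest being vector replicate 2 with ARID1B replicate 1. Whether the samples pair under other numbers was not tested, and the replicate block below covers only pairing by number. With the replicate block, 0 members and 0 of all genes were called, 64 members were negative and the median was -0.21.

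Log2 changes of some named genes reversed. With the GC and length correction, they were GABPA -0.088, LRPPRC -0.12, MRPL14 0.067, MRPL19 -0.040, MRPL42 -0.12, MRPS10 -0.0066, MRPS36 -0.024 and TFAM -0.0078. With it and without vector replicate 2, they were DAP3 0.016, GABPA -0.31, ICT1 0.075, LRPPRC -0.062, MRPL14 0.21, MRPL24 0.18, MRPL41 0.15, MRPS10 -0.022, MRPS12 0.13, MRPS18C 0.096, MRPS2 0.033, MRPS34 0.086, POLRMT 0.13, TFAM -0.022 and TUFM 0.042. Without both libraries numbered 3, they were MRPS10 -0.022, MRPS28 -0.0089 and MRPS36 -0.067. With 1 library left out, the ranges of the genes that reversed were DAP3 -0.22 to 0.075, GABPA -0.26 to 0.41, ICT1 -0.42 to 0.082, LRPPRC -0.028 to 0.11, MRPL14 -0.38 to 0.16, MRPL24 -0.46 to 0.14, MRPS10 -0.014 to 0.056, MRPS12 -0.55 to 0.045, MRPS18C -0.20 to 0.18, MRPS28 -0.016 to 0.18 and MRPS36 -0.065 to 0.15. Of these, DAP3, GABPA, ICT1, LRPPRC, MRPL14, MRPL24, MRPS12 and MRPS18C reversed without vector replicate 2, MRPS10 without ARID1B replicate 3, MRPS28 without vector replicate 1, and MRPS36 without ARID1B replicate 2 or without vector replicate 1 or 3. The cause was not tested.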
